A study of Mus musculus with 5 samples.

Results

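The 8 genes of mouse liver described here across 5 treatment groups are Fam89a, Kcnj10, Prok1, Nrep, Dclk3, Anks4b, Hdhd3 and Fam13a. They are 8 of the 36870 gene names carried by the arrays, and were picked from earlier results on the same arrays for a large decrease with troglitazone (TGZ) or for an effect of buthionine sulfoximine (BSO) that differed between TGZ and rosiglitazone (RGZ). The values that chose them are therefore the differences given below, which are a description and support nothing further. The working name for the set said that BSO restored these genes. The data bore out that name only in part, because with BSO added all 8 genes lay between their TGZ level and their vehicle level, and 7 of them were still at least 2-fold below vehicle.

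RNA came from livers of female BALB/c mice aged 6 weeks, taken 6 hr after intraperitoneal administration. The groups were vehicle, TGZ at 300 mg/kg, BSO at 700 mg/kg with TGZ at 300 mg/kg, RGZ at 300 mg/kg, and BSO at 700 mg/kg with RGZ at 300 mg/kg. No group received BSO without a thiazolidinedione. Each group was 1 pool of RNA from 6 animals on 1 single-colour Agilent array, and all 5 arrays lay on 1 slide, so no value has a replicate and no difference between groups could be tested.

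TGZ and RGZ are thiazolidinediones, drugs that activate the nuclear receptor PPAR gamma. They share the thiazolidinedione head group and differ in the side chain, which is a chromanol related to vitamin E in TGZ and a pyridine-containing chain in RGZ. TGZ was withdrawn from use because of liver injury. BSO inhibits glutamate-cysteine ligase, the first enzyme of glutathione synthesis, and so lowers the glutathione that conjugates reactive drug metabolites. The 8 genes are not usually grouped in any single pathway. Prok1 encodes prokineticin 1, a secreted ligand of G protein-coupled receptors, and Kcnj10 encodes Kir4.1, an inwardly rectifying potassium channel. Dclk3 is a kinase of the doublecortin-like family, and Hdhd3 is a protein of the haloacid dehalogenase (HAD) hydrolase family. Anks4b is an ankyrin-repeat scaffold of the complex that links microvilli at the apical surface of epithelial cells. Nrep (also called P311) is a small intracellular protein, and Fam89a is little characterised.

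The members lie on 8 different chromosomes, namely 1, 3, 4, 6, 7, 8, 9 and 18, so they are not a cluster of neighbours. The arrays hold 11 probes of 60 bases for them: 5 genes have 1 probe and 3 have 2. Each gene was followed through its brightest probe, and all 8 of these probes were well above background on all 5 arrays. In the mm9 build used by the files, these probes lie at chr8:127264178-127264237 for Fam89a, chr1:174304062-174304121 for Kcnj10, chr9:111391481-111391540 for Dclk3, chr4:62160156-62160215 for Hdhd3 and chr6:58884050-58884109 for Fam13a. The exon or untranslated region that each probe covers is not given in the files.

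The first 30 bases of the probe pairs are shown for Anks4b and Prok1, because the second Anks4b probe is a separate reading of the same decrease whereas the second Prok1 probe gave none. Positions are mm9.

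Anks4b probe used, chr7:127326703-127326762, plus strand: ccaagtaaaccatcaatgagaaaagacctt

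Anks4b second probe, chr7:127328097-127328156, plus strand: gtatatgcttcatgagcctggcgaattctc

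Prok1 probe used, chr3:107035953-107036012, minus strand: ctgagtaaggtccagggaaactcgagttag

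Prok1 second probe, chr3:107042539-107042598, minus strand: tagactgtgtttgtcgtcacctcaagtgat

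The Anks4b probes start 1394 bases apart, and both read well above background on every array except that the second probe did not do so with TGZ. The Prok1 probes start 6586 bases apart, and the second one was not well above background on any array. The same held for a second Nrep probe, which starts 24375 bases from the one used. The Prok1 and Nrep values thus each describe what 1 probe detects.

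The RefSeq promoter table (GRCm38.p6) held 7 start sites for 6 of the genes that can be shown. The 250 bases before the start are printed for 5 of them as a description. Whether these promoters share more or less than others do was not tested. Capitals mark matches, on either strand, to the motifs searched. One was the core promoter element TATAAA. Another was the box CCAAT, which reads ATTGG on the other strand. The GC box GGGCGG reads CCGCCC on the other strand. Part of the site bound by the liver factor HNF1 is GTTAAT, which reads ATTAAC on the other strand.

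Fam89a, chr8:124751867-124752116, minus strand: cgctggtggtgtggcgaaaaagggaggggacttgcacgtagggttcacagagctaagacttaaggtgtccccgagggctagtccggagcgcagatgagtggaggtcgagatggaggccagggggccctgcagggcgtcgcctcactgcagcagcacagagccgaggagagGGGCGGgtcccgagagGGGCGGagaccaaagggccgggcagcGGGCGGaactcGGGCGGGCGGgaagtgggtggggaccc

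Kcnj10, chr1:172340960-172341209, plus strand: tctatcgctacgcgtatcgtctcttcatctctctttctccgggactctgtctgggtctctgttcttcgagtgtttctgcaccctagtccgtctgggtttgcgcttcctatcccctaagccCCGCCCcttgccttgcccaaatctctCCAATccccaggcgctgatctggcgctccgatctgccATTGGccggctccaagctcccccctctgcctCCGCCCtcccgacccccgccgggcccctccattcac

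Prok1, chr3:107239708-107239957, minus strand: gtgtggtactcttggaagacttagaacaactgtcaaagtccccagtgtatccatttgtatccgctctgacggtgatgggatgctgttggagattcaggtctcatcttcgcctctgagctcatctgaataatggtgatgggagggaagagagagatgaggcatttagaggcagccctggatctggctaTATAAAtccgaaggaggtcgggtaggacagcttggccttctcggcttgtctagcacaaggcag

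Anks4b, chr7:120173608-120173857, plus strand: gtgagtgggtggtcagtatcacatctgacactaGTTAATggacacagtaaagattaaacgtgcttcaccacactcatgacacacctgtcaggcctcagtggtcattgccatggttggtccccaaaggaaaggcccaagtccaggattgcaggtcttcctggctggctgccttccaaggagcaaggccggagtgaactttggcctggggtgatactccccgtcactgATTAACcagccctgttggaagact

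Fam13a, chr6:59024503-59024752, minus strand: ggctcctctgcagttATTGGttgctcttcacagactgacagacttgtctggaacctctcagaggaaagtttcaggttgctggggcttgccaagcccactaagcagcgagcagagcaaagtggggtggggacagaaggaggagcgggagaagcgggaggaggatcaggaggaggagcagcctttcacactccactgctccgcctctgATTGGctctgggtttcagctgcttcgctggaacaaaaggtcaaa

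The Fam89a promoter was the most GC-rich, at 68.4% against a median of 52.4% over all 32851 promoters, and held 5 GC boxes, of which the last pair overlap. Kcnj10 held 2 GC boxes and 2 CCAAT boxes, and Hdhd3 (not printed) held 1 GC box. Prok1 held 1 match to TATAAA, Anks4b held 2 matches to GTTAAT and Fam13a held 2 CCAAT boxes. No motif was found in more than 3 of the 7 promoters. Over all promoters of this length, GGGCGG occurred in 32.7%, CCAAT in 33.8%, TATAAA in 12.4% and GTTAAT in 6.43%. The other 7 motifs searched had no match in these windows: the E box CACGTG, the cyclic AMP response element TGACGTCA, the AP-1 site TGANTCA, the C/EBP site TTGCGCAA, the core of the antioxidant response element TGACNNNGC, the HNF4 motif CAAAGTCCA and the PAR bZIP site TTATGTAA. Their shares over all promoters were 6.02%, 1.55%, 6.75%, 0.164%, 10.2%, 0.384% and 0.819%, in the same order. With shares this low, absence from 7 windows is not a result about these genes. CpG content also varied, with a ratio of observed to expected CpG of 0.83 for Kcnj10, 0.82 for Hdhd3 and 0.73 for Fam89a, but 0.26 for Fam13a and 0.17 for Anks4b, around a median of 0.37 over all promoters.

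Signal is given as a level, scaled so that the 75th percentile of each array's probes is 100. A level serves to compare groups for 1 gene, and not to rank genes, since probes differ in brightness. The software's own error of a spot (SD) was at most 10.5% of the level for the members on the vehicle, BSO plus TGZ, RGZ and BSO plus RGZ arrays, and 10.1% to 22.1% on the TGZ array. Differences are given as folds or on the log2 scale, with 95% intervals that combine the errors of the spots compared. These intervals cover measurement error only, not variation between animals or pools. A gene is counted as different at 2-fold or more. On the 5 arrays 51.9% to 55.2% of 56605 probes were well above background, no spot was saturated, and the 75th percentile of the unscaled signal ran from 141.5 on the TGZ array to 208.4 on the RGZ array.

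**Figure D1:**
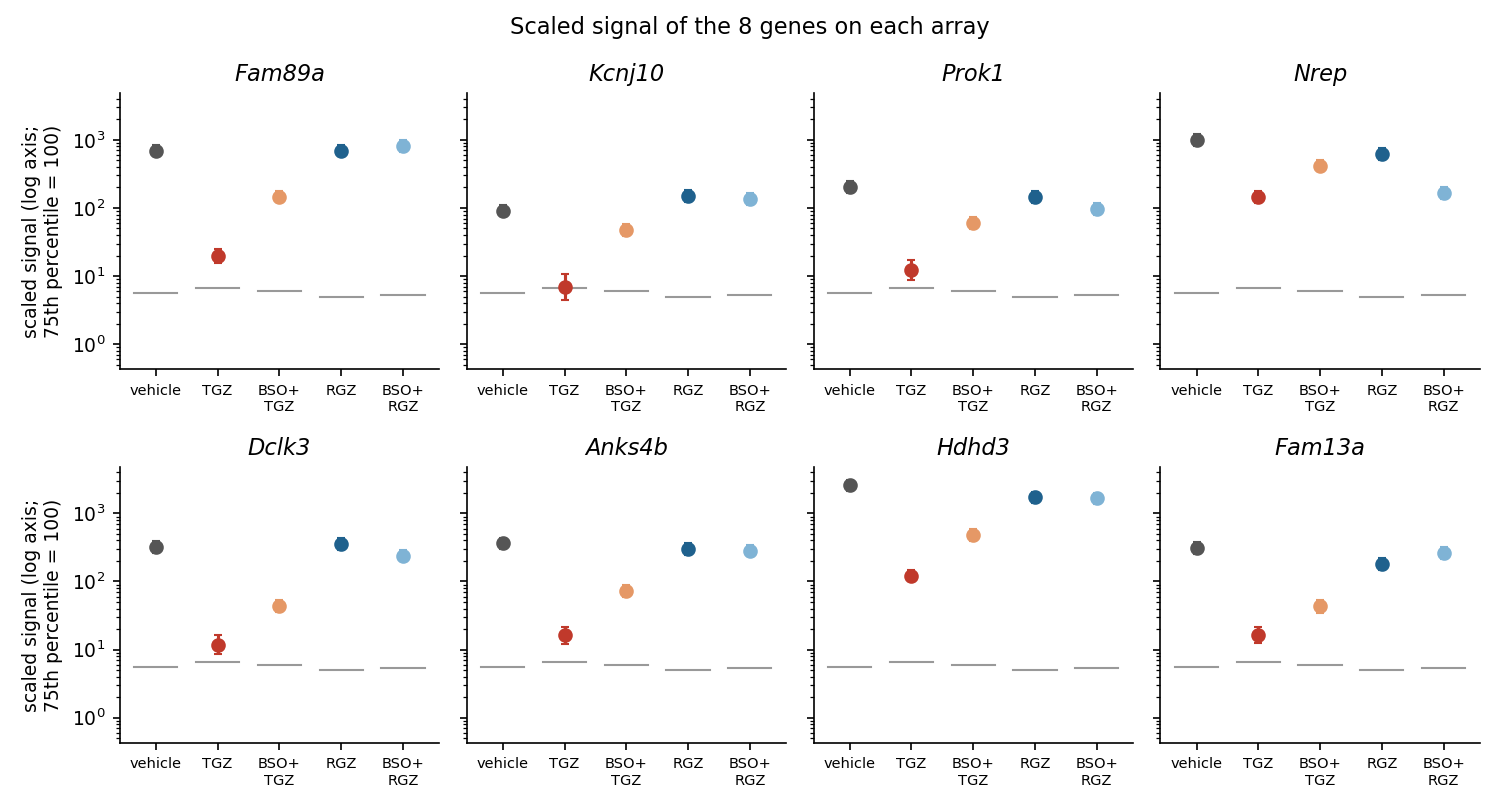
Level of each of the 8 genes on each array, on a log axis where 100 is the array's 75th percentile. Points are the 5 pooled samples, bars are 95% intervals of spot measurement error, and grey lines mark the lowest level called well above background on that array; each gene has its lowest point with TGZ and a higher one with BSO plus TGZ.

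All 8 genes were lower with TGZ than with vehicle, by 6.88-fold to 35.8-fold, with a median log2 difference of -4.33 against 0.02 over all 21215 genes with a value. Being at least 2-fold lower was shared by 9.53% of all genes, and since the members were chosen on this contrast their count is not a result. The folds below depend on background correction. With normexp and an offset of 50 the median was -2.68 and all 8 stayed past 2-fold. The fold was then 17.3 for Hdhd3, 14.5 for Fam89a, 7.43 for Dclk3, 6.73 for Anks4b, 6.07 for Fam13a, 5.68 for Nrep, 4.37 for Prok1 and 2.96 for Kcnj10. With normexp and no offset the median was -3.81. Over all genes 2021 were lower and 2147 higher, against 4415 and 1176 when arrays were scaled to the spike-in RNA. Fam89a had the largest measured decrease of 18989 genes, and Dclk3 the second largest. Anks4b ranked 5, Hdhd3 6, Fam13a 9, Prok1 15, Kcnj10 28 and Nrep 110.

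Among the secreted and membrane proteins, the Prok1 level was 204 with vehicle, 12.2 with TGZ, 61.0 with BSO plus TGZ, 144 with RGZ and 97.6 with BSO plus RGZ. Prok1 was thus below vehicle in all 4 treated groups, and lowest with TGZ, by 16.7-fold (interval 11.4 to 24.6). Its TGZ level was 1.83 times the lowest level called well above background on that array.

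The Kcnj10 level was 91.6 with vehicle, 6.95 with TGZ, 47.5 with BSO plus TGZ, 149 with RGZ and 135 with BSO plus RGZ. Kcnj10 therefore stood above vehicle with both RGZ treatments and below it with both TGZ treatments. It was 13.2-fold lower with TGZ (8.19 to 21.2), against the 2.96-fold of normexp with the offset, which lies outside that interval. The TGZ level was 1.05 times the floor of that array (6.63, the lowest level called well above background), so this fold is the least well measured of the 8.

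Among the enzymes, the Dclk3 level was 324 with vehicle, 11.8 with TGZ, 43.9 with BSO plus TGZ, 353 with RGZ and 239.8 with BSO plus RGZ. Its decrease with TGZ was 27.3-fold (19.0 to 39.3), from a TGZ level only 1.79 times the floor. With BSO plus TGZ it was higher than with TGZ but still 7.37-fold below vehicle.

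The Hdhd3 level was 2583 with vehicle, 122 with TGZ, 482 with BSO plus TGZ, 1721 with RGZ and 1658 with BSO plus RGZ. It was lower with TGZ by 21.2-fold (16.0 to 28.0). Its TGZ level was 18.4 times the floor, so the fold does not rest on a dim spot.

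Among the intracellular proteins of other kinds, the Anks4b level was 362 with vehicle, 16.2 with TGZ, 71.6 with BSO plus TGZ, 301 with RGZ and 285 with BSO plus RGZ. The decrease with TGZ was 22.3-fold (15.9 to 31.4). The second Anks4b probe read 199 with vehicle, 39.0 with BSO plus TGZ, 169 with RGZ and 148 with BSO plus RGZ, and 1.52 with TGZ, which is not well above background. By that probe the decrease was at least 30.1-fold against the floor of the TGZ array, and its 5.11-fold decrease with BSO plus TGZ lay beside the 5.06-fold of the first probe.

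The Fam13a level was 309 with vehicle, 16.2 with TGZ, 43.0 with BSO plus TGZ, 179 with RGZ and 263 with BSO plus RGZ. The fold between vehicle and TGZ was 19.1 (13.6 to 26.7). Fam13a was below vehicle in all 4 treated groups, with an interval that reached 0 only for BSO plus RGZ.

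The Fam89a level was 699 with vehicle, 19.5 with TGZ, 147 with BSO plus TGZ, 694 with RGZ and 808 with BSO plus RGZ. The decrease with TGZ was 35.8-fold (26.3 to 48.7), while the RGZ level differed from vehicle by less than the measurement error.

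The Nrep level was 987 with vehicle, 143 with TGZ, 419 with BSO plus TGZ, 618.2 with RGZ and 166 with BSO plus RGZ. With TGZ it was 6.88-fold lower (5.21 to 9.09), the smallest fold of the 8. Nrep alone of the 8 was about as low with BSO plus RGZ as with TGZ.

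With BSO added to TGZ every member was higher than with TGZ alone, by 2.65-fold to 7.53-fold and a median of 2.06 on the log2 scale. This contrast also chose the members. Among all genes 1.57% were at least 2-fold higher in it. The increase was 7.53-fold (5.54 to 10.2) for Fam89a, 6.84-fold (4.24 to 11.0) for Kcnj10 and 5.01-fold (3.40 to 7.40) for Prok1, which ranked 3, 4 and 7 of 19400 genes. It was 4.41-fold for Anks4b, 3.95-fold for Hdhd3, 3.71-fold for Dclk3 and 2.92-fold for Nrep, and for Fam13a 2.65-fold (1.88 to 3.74).

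The unscaled TGZ signal was below 50 for 6 of the 8 genes, all but Hdhd3 and Nrep, and the increase depended on background correction. When normexp background correction with an offset of 50 replaced the processed signal, the median difference fell to 0.88, and the difference was under 2-fold for Kcnj10 (0.90), Prok1 (0.82), Dclk3 (0.67), Anks4b (0.86) and Fam13a (0.49). It remained past 2-fold for Fam89a (1.78), Hdhd3 (1.73) and Nrep (1.33). With normexp and no offset, all 8 differences were past 2-fold, with a median of 1.69.

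The gain left most genes well short of vehicle. With BSO plus TGZ, 7 of the 8 were at least 2-fold below vehicle, against 5.91% of all genes, and the median log2 difference was -2.29. Dclk3 stayed 7.37-fold lower (5.55 to 9.78), Fam13a 7.19-fold (5.41 to 9.55), Hdhd3 5.36-fold, Anks4b 5.06-fold and Fam89a 4.75-fold. Prok1 stayed 3.34-fold lower and Nrep 2.36-fold. Kcnj10 was the exception at 1.93-fold lower (1.45 to 2.56), an interval that spans 2-fold. It was just past 2-fold with median scaling (-1.001) and with spike-in scaling (-1.14), both log2. As a share of the vehicle level, the members stood at 2.79% to 14.5% with TGZ and at 13.6% to 51.8% with BSO plus TGZ. Kcnj10 regained 74.5% of its log2 decrease, Prok1 57.2%, Fam89a 56.5%, Nrep 55.6%, Anks4b 47.8%, Hdhd3 45.0%, Dclk3 39.6% and Fam13a 33.1%. With normexp and the offset these shares were smaller and their order differed: 57.6% for Kcnj10, 53.0% for Nrep, 46.2% for Fam89a, 42.1% for Hdhd3, 38.5% for Prok1, 31.1% for Anks4b, 23.1% for Dclk3 and 18.8% for Fam13a. With normexp and no offset the shares ran from 28.8% to 69.4%.

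**Figure D2:**
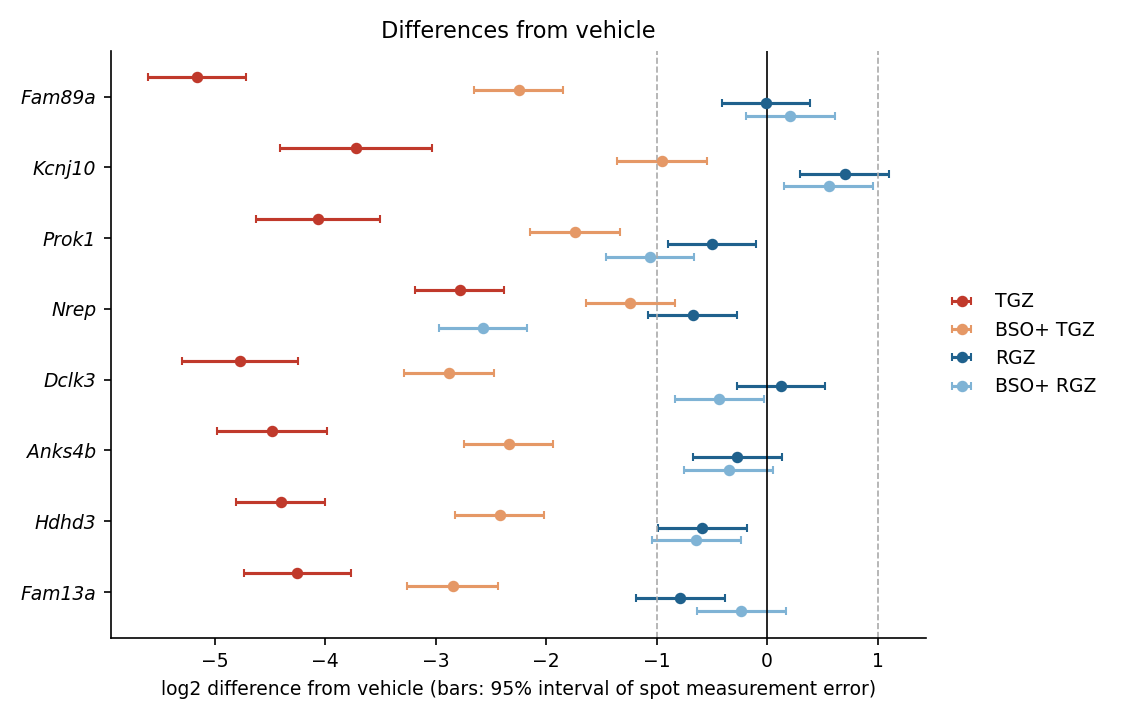
Log2 difference from vehicle for each gene in the 4 treated groups, with 95% intervals of spot measurement error; dashed lines mark 2-fold. TGZ points lie at -2.78 or lower and BSO plus TGZ points at -0.95 or lower, while RGZ points lie between -0.79 and 0.70.

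With RGZ alone none of the 8 differed from vehicle by 2-fold in either direction, where 3.33% of all genes did. Fam13a (-0.79), Nrep (-0.68), Hdhd3 (-0.59) and Prok1 (-0.50) had log2 differences from vehicle whose intervals lay below 0. Kcnj10 was the only one with an interval above 0, at 0.70 (0.30 to 1.10). The values for Anks4b (-0.27), Fam89a (-0.01) and Dclk3 (0.13) lay within measurement error.

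With BSO plus RGZ, 2 of the 8 were at least 2-fold below vehicle, against 3.78% of all genes. Nrep was 5.95-fold lower (4.51 to 7.85), the 16th lowest of 19569 genes, and Prok1 was 2.08-fold lower (1.58 to 2.75). The Prok1 value fell under 2-fold with other processing, at -0.96 on the log2 scale with median scaling and with spike-in scaling, and at -0.84 with normexp. Kcnj10 was 1.47-fold higher than vehicle (1.11 to 1.95). The other 5 had log2 differences between -0.64 for Hdhd3 and 0.21 for Fam89a.

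Against RGZ alone, 1 of the 8 genes was past 2-fold in either direction with BSO plus RGZ, as were 1.25% of all genes. That gene was Nrep, 3.73-fold lower (2.82 to 4.92) and the 4th lowest of 19869 genes. Averaged with its second probe, which was not well above background on any array, the log2 difference was -0.87. Prok1 and Dclk3 were each lower by 0.56 on the log2 scale, and Fam13a was higher by 0.55 (0.15 to 0.95). For Fam89a, Kcnj10, Anks4b and Hdhd3 the intervals included 0.

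The log2 difference with BSO was higher with TGZ than with RGZ for all 8 genes, by 0.86 to 3.44 and a median of 2.57. This contrast too entered the choice of members. Past 2-fold in this direction were 7 of the 8 and 2.19% of all genes. Nrep ranked 1 of 18666 genes with 3.44 (2.88 to 4.01), because BSO went with a higher level under TGZ and a lower one under RGZ. Kcnj10 ranked 2 with 2.92 and Prok1 ranked 3 with 2.89. Fam13a ranked 632 with 0.86 (0.22 to 1.49). Its difference with BSO was 1.41 under TGZ, the smallest of the 8, and 0.55 under RGZ, the largest of the 8. With normexp and the offset the median gap was 1.22 and 6 of the 8 were past 2-fold. Anks4b then had a gap of 0.93, and that of Fam13a was close to 0, with differences of 0.49 under TGZ and 0.48 under RGZ. Nrep kept a gap of 3.02. With normexp and no offset the median gap was 2.12 and 7 of the 8 were past 2-fold.

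**Figure D3:**
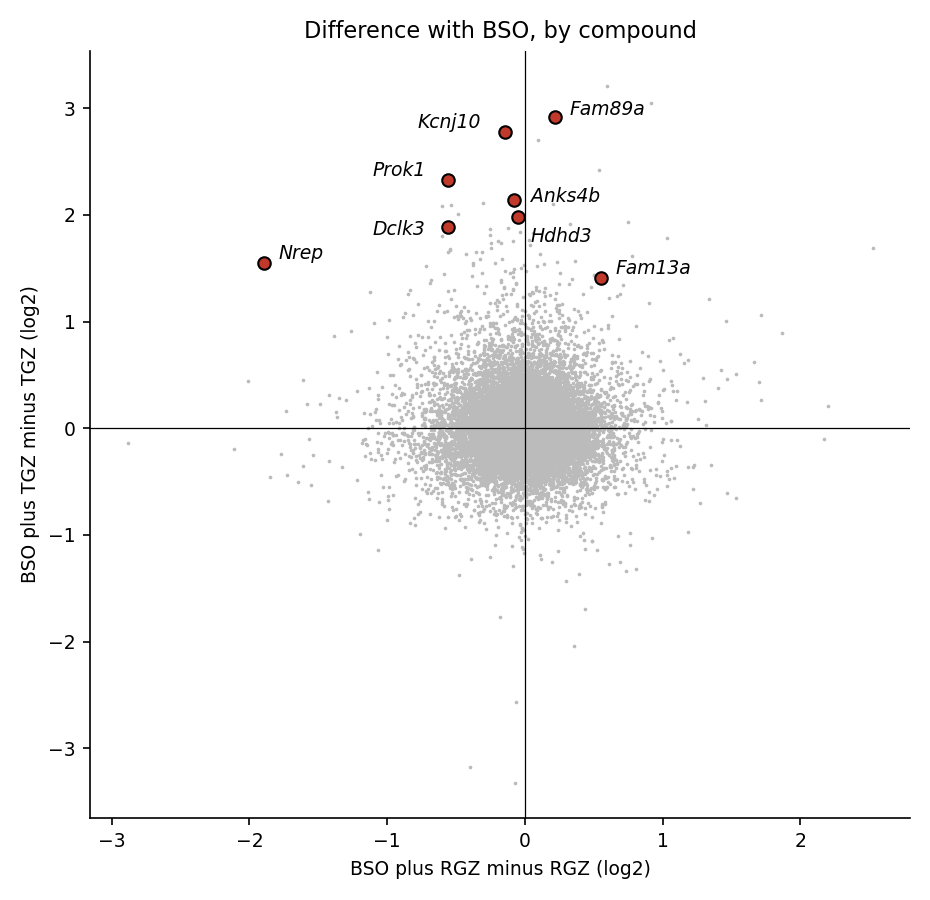
Log2 difference between BSO plus TGZ and TGZ (vertical) against that between BSO plus RGZ and RGZ (horizontal), for genes well above background on all 4 arrays (grey) and the 8 genes (red). The 8 genes lie at 1.41 or more on the vertical axis, and Nrep is set off to the left at -1.90.

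At the matched dose of 300 mg/kg, all 8 genes were lower with TGZ than with RGZ, as were 8.56% of all genes by at least 2-fold. The fold ran from 4.31 (3.26 to 5.69) for Nrep to 35.6 (26.2 to 48.4) for Fam89a. With BSO given beside both drugs the gap was narrower: 6 of the 8 were at least 2-fold lower with TGZ, against 5.28% of all genes. Fam13a was then 6.11-fold lower, Fam89a 5.50-fold, Dclk3 5.46-fold, Anks4b 3.97-fold, Hdhd3 3.44-fold and Kcnj10 2.84-fold. Prok1 was 1.60-fold lower (1.21 to 2.12), and Nrep was reversed, at 2.52-fold higher (1.91 to 3.33). The 8 pairs at each of these matched designs were compared as values without a test.

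**Figure D4:**
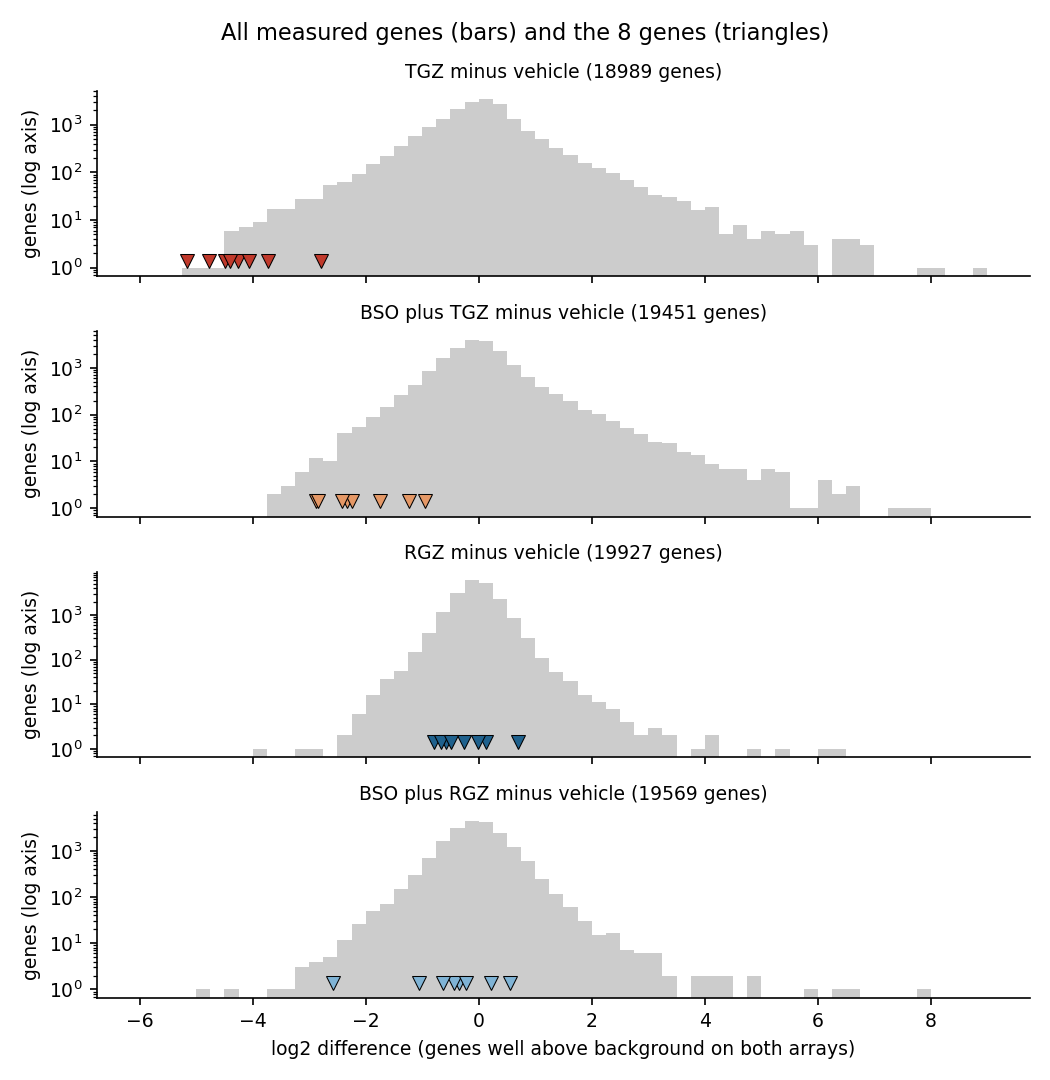
Number of genes (bars, log axis) by log2 difference from vehicle in 0.25-wide bins, for the 4 treated groups, with the 8 genes as triangles. The triangles lie in the far lower tail with TGZ, closer to the middle with BSO plus TGZ, and near 0 with RGZ; with BSO plus RGZ, Nrep alone lies far down at -2.57.

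Other genes strongly lowered by TGZ were read in the same way, as a description. Of 87 genes at least 8-fold lower with TGZ and measured on the vehicle, TGZ and BSO plus TGZ arrays, 81.6% were at least 2-fold higher with BSO plus TGZ than with TGZ. The 7 members in that set (all but Nrep) were among these, as were 64 of the other 80 genes. With normexp and the offset 27 of the same 87 were past 2-fold, and with normexp and no offset 58 were. The 87 were picked for low values on the TGZ array, and the difference from BSO plus TGZ uses that array again, so the selection itself favours a gain. Only 3 of the 87 were within 2-fold of vehicle, namely Kcnj10 and the histone H3 genes Hist2h3c1 and Hist2h3c2, whose near-identical sequences may share probes.

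The non-members with the largest decreases are given for their own values, since the members were chosen in part on the BSO difference. They were sought among genes well above background on all 5 arrays with a RefSeq symbol. Genes not well above background with TGZ were thus left out. Wnt5b, a secreted WNT ligand, was 20.2-fold lower with TGZ and 4.71-fold lower with BSO plus TGZ. Fasn, the fatty acid synthase, was 18.8-fold and then 4.42-fold lower. Derl3, a factor of endoplasmic reticulum-associated degradation, was 22.5-fold and then 12.1-fold lower. Over the 8 such genes, which also include Gm5524, Gm8221, Spata2l, Mid1ip1 and Apol7a, the fold with BSO plus TGZ ran from 4.42 to 12.6.

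**Figure D5:**
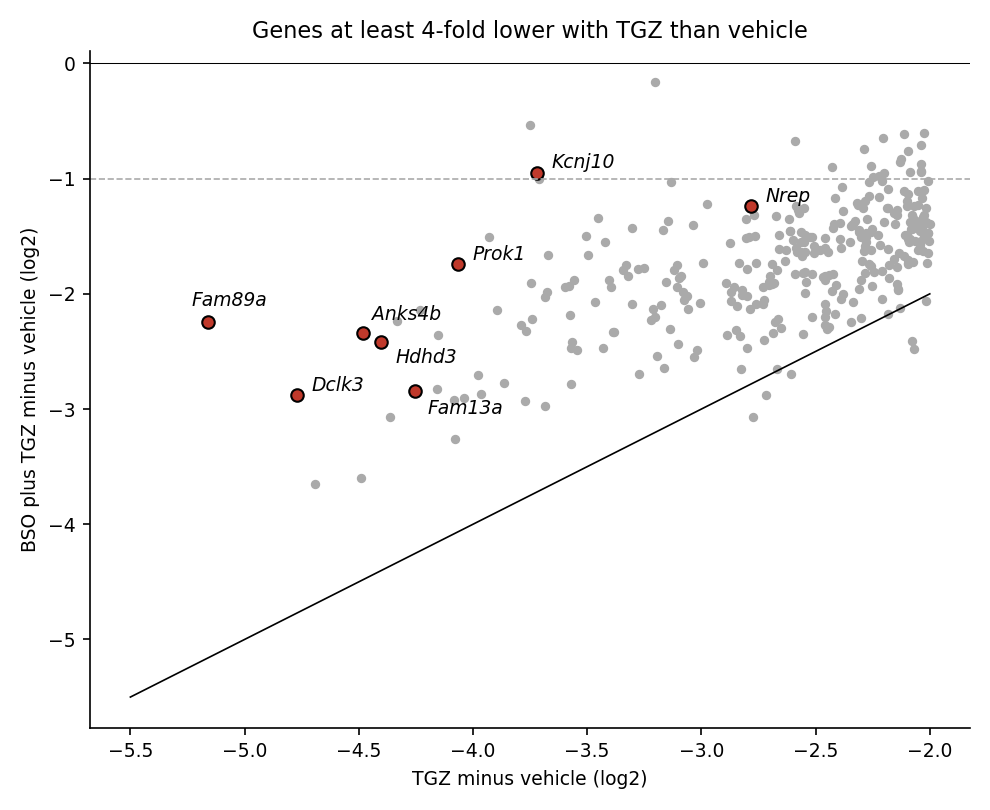
Log2 difference from vehicle with BSO plus TGZ (vertical) against that with TGZ (horizontal), for genes at least 4-fold lower with TGZ; both axes share the vehicle array. The diagonal marks an equal level with and without BSO, the dashed line is 2-fold below vehicle, and of the 8 genes (red) Kcnj10 alone lies above it.

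The genes whose 4 differences from vehicle were most like those of each member were found among 13905 others by root mean square distance on the log2 scale. These 13905 passed the same filter as the non-members above. Fasn was nearest to Prok1 (0.23) and to Hdhd3 (0.31), and Wnt5b was nearest to Anks4b (0.23) and Fam89a (0.52). G6pc, which releases glucose in gluconeogenesis, was nearest to Kcnj10 (0.22), and Angptl8, a secreted regulator of lipoprotein lipase, was the third nearest (0.39). Nrep was nearest to Hsd3b2 (0.47), Tmie (0.48) and Hsd3b3 (0.51), genes of which the Hsd3b pair encode steroid dehydrogenases and may share probe sequence. Spata2l was nearest to Dclk3 (0.33), and Dbp, a transcription factor with a daily rhythm, was nearest to Fam13a (0.41). Slc2a5, a fructose transporter, was nearest to the median pattern of the 8 (0.24). The named neighbours depended on the measure: none of the 29 named by distance was among those named by Pearson correlation over the 5 arrays. Each list held only 3 genes per member and 5 for the median. The 29 had correlations of 0.91 or higher, with ranks from 4 (Fasn for Prok1) to 584 (Dbp for Fam13a) of 13905.

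Among the members, Anks4b and Hdhd3 were most alike (0.22), followed by Hdhd3 and Fam13a (0.32). Nrep and Fam89a were farthest apart (1.93). Nrep lay at least 1.03 from every other member, and Kcnj10 did as well.

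The wider families were read from the same arrays. Of 40 genes related by family or as known partners, 24 had a value for TGZ against vehicle, with a median of -0.08. At least 2-fold lower was 1, and 1 was higher, beside 9.53% lower and 10.1% higher over all genes. The lower one was Kcnj16, encoding Kir5.1, which forms a joint channel with the Kcnj10 product. Its level was 34.4 with vehicle, 4.70 with TGZ (not well above background), 9.21 with BSO plus TGZ, 25.8 with RGZ and 34.0 with BSO plus RGZ. Kcnj16 was thus at least 5.18-fold lower with TGZ and still lower by 1.90 on the log2 scale with BSO plus TGZ. Kcnj9, the family member that sits next to Kcnj10 on the chromosome, differed by 0.13.

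The receptors of prokineticins, Prokr1 and Prokr2, were not well above background on any array. Prok2, the other ligand, was well above background on the TGZ array only, at a level of 11.7, which is at least 2.09-fold higher than with vehicle. Among the adhesion partners of Anks4b, Cdhr2 differed by 0.37 and Cdhr5 by 0.04, while Ush1c and Myo7b were not well above background on any array. Hdhd2 differed by -0.80 and Hdhd5 by -0.79, both short of 2-fold, and Fam89b differed by -0.31. Fam13b differed by -0.57, Fam13c by 0.16, and Dclk2 by -0.05.

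Genes beside the members on the chromosome were looked at after the member values were known. Of 16 such neighbours with a value, 4 were at least 2-fold lower with TGZ and 2 higher (Pigm beside Kcnj10 and Epb41l4aos beside Nrep), with a median of -0.48. These counts stand beside 9.53% lower and 10.1% higher over all genes. Stard4, a cholesterol transfer protein and neighbour of Nrep, was lowest at -2.54. The others lower were 2810004N23Rik beside Fam89a (-1.19), Bspry beside Hdhd3 (-1.18) and Herc3 beside Fam13a (-1.09).

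In whole liver, fewer cells of a type and less RNA per cell cannot be told apart, so marker genes were read on the same arrays. None of 10 hepatocyte markers was 2-fold lower with TGZ and 2 were higher (Fgb by 1.56 and Tat by 1.33, both log2). The median difference of the 10 was 0.25. Over all genes 9.53% were lower and 10.1% higher with TGZ. Of 8 sinusoidal endothelial markers, 4 were lower with TGZ (Kdr by 1.94 on the log2 scale, and Oit3, Fcgr2b and Clec4g) and 2 were higher (Lyve1 and Cdh5). Their summed level was 6564 with vehicle, 3986 with TGZ, 5451 with BSO plus TGZ, 6094 with RGZ and 5626 with BSO plus RGZ. The summed level was lowest with TGZ, and so was that of the Kupffer cell and macrophage markers given below. The median difference of the endothelial markers was -0.74 for TGZ against vehicle and 0.48 for BSO plus TGZ against TGZ. In the latter none of the 8 reached 2-fold. All 8 were well above background in every group. Their part in the members' values was not tested.

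Kupffer cell and macrophage markers showed no 2-fold difference with TGZ in 8 genes, with a median of -0.45, and a median of 0.58 between BSO plus TGZ and TGZ. Their summed level was 5697 with vehicle, 4651 with TGZ, 6239 with BSO plus TGZ, 6011 with RGZ and 5483.5 with BSO plus RGZ. Of 8 neutrophil markers, 4 were higher with TGZ (median 2.18), 5 with BSO plus TGZ (2.34), 4 with RGZ (0.88) and 4 with BSO plus RGZ (0.84). Over all genes 10.1% were higher with TGZ and 1780 of 21419 with BSO plus TGZ. The counts were 353 of 21274 with RGZ and 647 of 21201 with BSO plus RGZ. With TGZ the 4 markers were S100a8, S100a9, Retnlg and Cxcr2, at 3.88 or more. Ly6g (-0.70), Elane (-0.10), Csf3r (0.19) and Mpo (0.48) were within 2-fold, so no marker lay near the median. The summed level of the 8 neutrophil markers was 11228 with vehicle, 25599 with TGZ, 25651 with BSO plus TGZ, 12078 with RGZ and 12753 with BSO plus RGZ. With TGZ, stellate cell markers had 1 of 8 lower and none higher (median 0.08). Lymphocyte markers had 1 of 6 with a value lower and none higher (-0.70). Of 4 cholangiocyte markers with a value none was lower and 1 was higher (Sox9, by 3.74 on the log2 scale), with a median of 0.45. Of 4 erythroid markers with a value none was lower and 1 was higher (Slc4a1, by 1.44), with a median of -0.04.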

How the data were processed

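Total RNA of 6 livers per group was pooled, labelled with Cy3 and hybridised to 1 Agilent array per group. Per the file headers, Feature Extraction 12.0.3.1 wrote each spot's processed signal, an intensity with local background and spatial trend removed, and its error; arrays were left unscaled. The deposited value table holds log2 values that, set against the array files, differ from the log2 of this signal by a single offset on each array.

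The log2 of each spot was taken, spots of a probe were averaged, and each array's 75th percentile of 56605 non-control probes was subtracted (Python 3.11.15, numpy 2.4.6, pandas 2.3.3). A gene is its probe with the highest mean. A probe not well above background on 1 array gives a bound ("at least") against the lowest level called well above background there; on both, no value. Intervals are 1.96 SD of spot error. With 1 array per group no test was made. The calculation was tested on simulated data. The label abbreviations TGZ, RGZ and BSO were read as troglitazone, rosiglitazone and buthionine sulfoximine, from the study's title and general knowledge.

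The members and gene lists were chosen with earlier results of these data known. Named genes are the members, up to 2 examples per list farthest from 0 with TGZ, 3 nearest genes per member, 5 nearest to their median, and the 8 non-members with the largest decrease. The nearest genes and these 8 non-members were sought among genes well above background on all 5 arrays with a RefSeq symbol. Other list genes named, and the chromosome neighbours, were chosen after their values were seen. Promoter sequences are from RefSeq (GRCm38.p6), which was used for names and neighbours only, since probe coordinates are mm9; Dclk3 had no entry and Nrep is not shown. Alternatives were background correction, scaling, floor, probe choice, filter and threshold.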

Additional observations from a re-analysis of the deposited data

Results flagged for a closer look

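In 3 genes the interval of the BSO difference lay above 0 with TGZ and below 0 with RGZ. For Nrep, the log2 difference between BSO plus TGZ and TGZ was 1.55 and that between BSO plus RGZ and RGZ was -1.90, a gap of 3.44. For Prok1 the values were 2.33 and -0.56, a gap of 2.89. For Dclk3 they were 1.89 and -0.56, a gap of 2.45. With 1 pool per group these gaps were not tested, and the genes were picked in part on them. With normexp and an offset of 50 the gaps were 3.02 for Nrep, 1.24 for Prok1 and 1.20 for Dclk3, and the difference with TGZ was under 2-fold for Prok1 (0.82) and Dclk3 (0.67). With normexp and no offset the gaps were 3.32 for Nrep, 2.23 for Prok1 and 2.03 for Dclk3.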

How the results depend on the processing

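No paired analysis was possible because each group is 1 array, and for the same reason no replicate could be left out. All 8 members stayed at least 2-fold lower with TGZ than vehicle under every alternative run. When its 2 probes were averaged, Prok1 with RGZ against vehicle went from -0.50 to 0.01, past its interval and across 0. No other member value changed sign past its interval. Of 384 pairs of a member value and an alternative, 37 moved past the measurement interval, and 14 changed side of 2-fold, none of them for TGZ against vehicle. With normexp (offset 50) the median member difference was -2.68 for TGZ against vehicle, 0.88 for BSO plus TGZ against TGZ, and 1.22 for the gap between BSO effects. With normexp and no offset, added after those values were seen, the first was -3.81, the second 1.69 and the third 2.12. The number of members within 2-fold of vehicle with BSO plus TGZ, 1 as reported, was 0 with median scaling, 0 with spike-in scaling, 0 at a 1.5-fold threshold and 3 when a gene's probes were averaged. In that last setting Prok1 and Nrep include a probe below background, which gave -0.84 and -0.09 for BSO plus TGZ against vehicle, and -0.87 for Nrep between BSO plus RGZ and RGZ. For BSO plus TGZ against vehicle, Kcnj10 was past 2-fold, at -1.001 with median and -1.14 with spike-in scaling. Spike-in scaling moved the median of all genes by -0.47 for TGZ against vehicle and by 0.28 for BSO plus TGZ against TGZ. All genes at least 2-fold lower with TGZ numbered 2021, but 910 with normexp, 4415 with spike-in scaling, 3208 with no floor and 435 at 4-fold. Those at least 2-fold higher with BSO plus TGZ than TGZ numbered 326, but 51, 717, 1373 and 34 in the same order, and 202 when well above background on all arrays was required. Scaling also moved the balance of all genes. With BSO plus TGZ against vehicle 1265 were lower and 1780 higher, but 1972 and 1388 with spike-in scaling. With BSO plus TGZ against TGZ 103 were lower and 326 higher, but 145 and 257 with median scaling and 39 and 717 with spike-in scaling. With RGZ against vehicle 356 were lower and 353 higher, but 284 and 425 with spike-in scaling. With BSO plus RGZ against vehicle 802 were lower and 647 higher, but 622 and 844 with median scaling and 623 and 842 with spike-in scaling. With BSO plus RGZ against RGZ 154 were lower and 111 higher, but 104 and 154 with median scaling and 132 and 131 with spike-in scaling. Signal limits the TGZ values, since 6 members read below 50 unscaled on that array.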
